A study of Mus musculus with 21 samples.

Results

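The 31 genes described here encode the enzymes, transporters and electron carriers that break down fatty acids in mitochondria and peroxisomes, with Pex11a, a factor in peroxisome division. They were taken from a list of gene names, 20 placed in the mitochondrial and 11 in the peroxisomal group, and each was represented by the probe set with the highest mean over all 21 Affymetrix mouse arrays. Of the 31, 30 were represented and tested among 12156 genes tested in all (18194 represented). Cpt1b, the carnitine palmitoyltransferase of muscle, lies only on a probe set shared by several genes and has no value. The arrays come from 3T3-L1 cells, a mouse preadipocyte line differentiated into adipocytes in culture for 14 days, in 7 groups of 3 biological replicates. The control was untreated and labelled 0 h, and the others were exposed, for the last 2 h, 24 h or 6 d of culture, either to the synthetic glucocorticoid dexamethasone at 20 nM (Dex) or to the inflammatory cytokine TNF-alpha (TNF). The labels used here give no TNF dose, and 1 control serves all times. The study followed gene expression as adipocytes become insulin resistant, and the question here is how the oxidation genes of each organelle moved under either agent.

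Long-chain fatty acids enter mitochondria as carnitine esters: Cpt1a forms the ester at the outer membrane, the regulated entry step, and Cpt2 reverses it inside. A spiral of dehydrogenation, hydration, a further dehydrogenation and thiolysis then shortens the chain, and its first electrons leave through the electron transfer flavoprotein. Peroxisomes run a parallel spiral on very long, branched and dicarboxylic chains that begins with an oxidase and hands shortened products to mitochondria. White adipocytes mainly store fatty acids, and many genes of both spirals are known targets of the PPAR nuclear receptors.

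Values are log2 expression, changes are log2 differences of group means ± standard error (SE) from limma, and a gene is called higher or lower when its adjusted p is below 0.05. Arrays have no read depth, so the 3 arrays a group limit the precision, and an exact permutation of 3 against 3 cannot give a p below 0.1. TNF 6 d replicate 2 stood apart, with a correlation of 0.842 to 0.844 with its mates and a 3' minus 5' difference of control probe sets of 2.0, against 0.021 to 0.777 on the other arrays. All groups share the residual spread in the fit, so this array bears on comparisons that do not hold it, and each count of oxidation genes called is given with and without it. Counts with any other array left out have no share of all genes beside them and are no result about the members alone.

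With all arrays, no oxidation gene was called at 2 h, 11 of 30 were lower after 24 h of TNF and 19 of 30 after 6 d, and Dex lowered 4 at 24 h and 3 at 6 d. At 2 h, 0 of 30 genes were called under Dex (2.48% of all genes tested were called) and 0 of 30 under TNF (3.82%). Without TNF 6 d replicate 2, Dex 2 h again gave 0 (7.12%), and TNF 2 h gave 1 gene higher, Ehhadh (6.59% of all genes higher), and 1 lower, Pex11a (-0.49 ± 0.15, adjusted p = 0.0405; 4.08% lower). Ehhadh, a peroxisomal bifunctional enzyme, was dim. It entered the test only through TNF 2 h replicates 1 and 2 (6.03 and 6.15) and Dex 24 h replicate 2 (5.64), while TNF 2 h replicate 3 read 5.03. Its differences from TNF 2 h or from Dex 24 h therefore draw on values that passed it through the filter. Its calls there are counted but support nothing. Across the 6 comparisons with control, 21 of 30 genes were called lower at least once (15.3% of all genes tested) and 0 were called higher (11.8%). Without that array, 27 were called lower (27.4%), 5 higher (28%), 3 of these both ways, and 1 was called in no comparison. That 1 gene was Acadl, the long-chain acyl-CoA dehydrogenase, with control values of 12.45, 12.37 and 12.46 and TNF 24 h values of 12.55, 12.46 and 12.16.

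**Figure D1:**
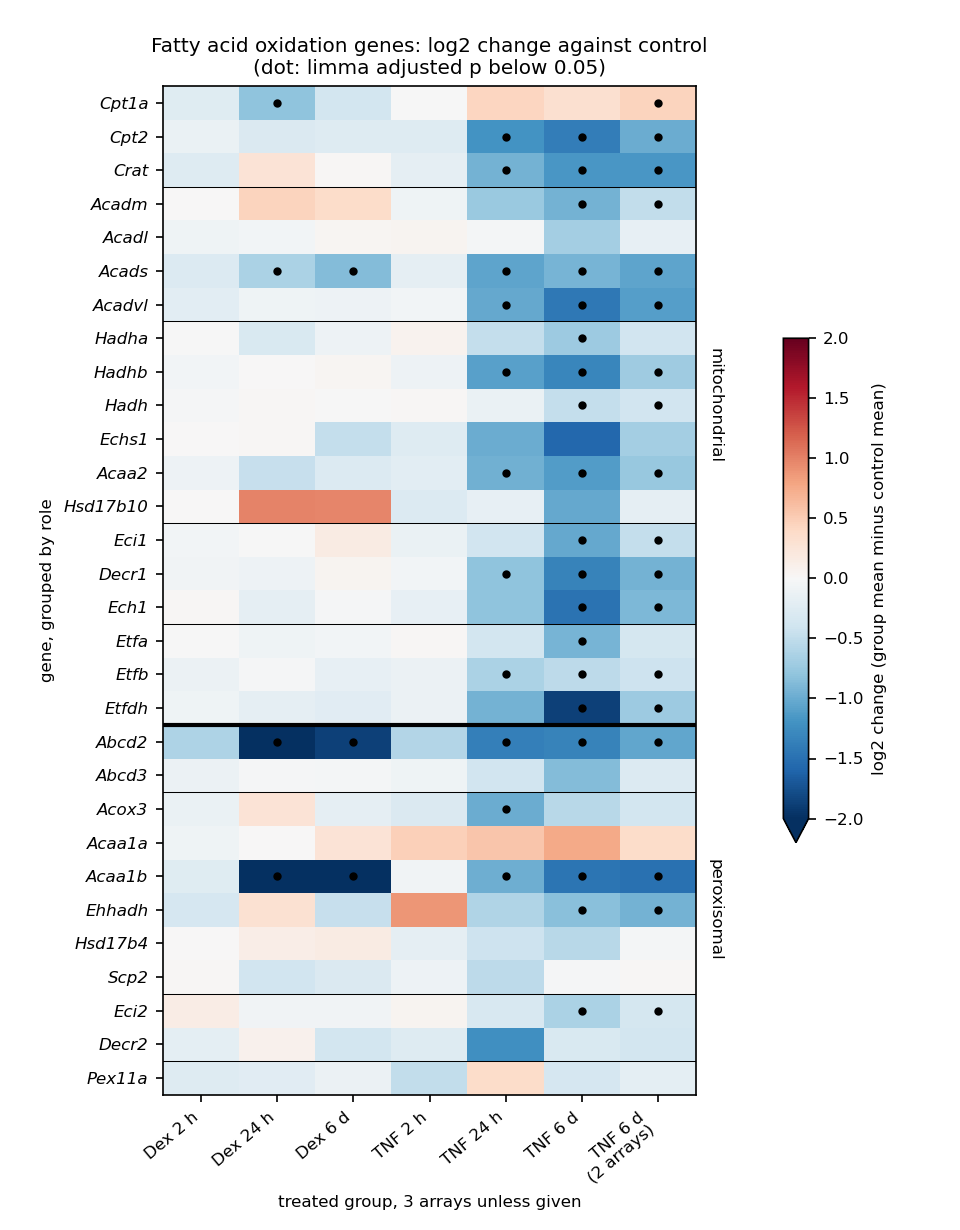
Log2 change against control (colour, red higher and blue lower, scale ending at -2 and 2) for the 30 oxidation genes in rows, grouped by role with mitochondrial genes above the thick line, in the 6 treated groups and in TNF 6 d without replicate 2. Dots mark an adjusted p below 0.05: the TNF 24 h and 6 d columns are blue for most genes, while under Dex the dark cells are those of Abcd2 and Acaa1b.

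After 24 h of TNF, 11 of 30 genes were lower and 0 higher, where 3.27% of all genes tested were lower. The median change of the 30 was -0.69, against -0.03 for all genes tested. The counts without TNF 6 d replicate 2 were 23 lower (12.4% of all genes) and 2 higher (13.2%). Without TNF 24 h replicate 3, which had a 3' minus 5' difference of 0.683, 7 were lower (no share of all genes given). Hadhb, Decr1, Acox3 and Acaa1b were then no longer called.

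Of the carnitine shuttle, Cpt2 and Crat were lower at 24 h of TNF, and Cpt1a was not. Cpt2, the inner-membrane transferase, read 11.93, 11.98 and 12.28 in control and 10.84, 10.86 and 10.94 under TNF. These groups did not overlap, and Cpt2 fell 2.27-fold (-1.19 ± 0.23, adjusted p = 0.00167). Crat, the carnitine acetyltransferase that exports short acyl groups, read 10.44, 10.58 and 10.79 in control and 9.64, 9.72 and 9.63 under TNF. All 3 TNF values lay below the control values, a change of -0.94 ± 0.14 (adjusted p = 8.95e-05). Cpt1a lay above its control values of 9.42, 9.24 and 9.33 on all 3 TNF arrays, at 10.03, 9.48 and 9.78. Its difference of 0.43 ± 0.16 did not pass with all arrays (adjusted p = 0.136) and passed without TNF 6 d replicate 2 (adjusted p = 0.0164), so that the entry enzyme was then higher beside a lower Cpt2. All 3 Cpt1a probe sets read higher at TNF 24 h than in control (8.89 against 8.09 and 7.44 against 6.61 for the other two), and their mean rose by 0.68 with all arrays (adjusted p = 0.00388).

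The acyl-CoA dehydrogenases catalyse the first step of the spiral, each for a range of chain lengths. Of these, 2 of 4 were lower at TNF 24 h (3.27% of all genes tested). Acadvl, for very long chains, read 12.44, 12.36 and 12.9 in control and 11.66, 11.65 and 11.31 under TNF, without overlap. It fell 2.03-fold (-1.02 ± 0.23, adjusted p = 0.00563). Acads, for short chains, fell 2.06-fold (-1.05 ± 0.17, adjusted p = 0.000403), from 11.72, 11.69 and 11.96 to 10.98, 10.92 and 10.33. Acadm, for medium chains, read 13.5, 13.42 and 13.42 in control and 12.9, 12.91 and 12.29 under TNF. Its difference of -0.74 had an SE of 0.25 and an adjusted p of 0.0721 with all arrays, and an SE of 0.11 and an adjusted p of 3.25e-05 without TNF 6 d replicate 2. Of the 4, Acadl is then the one that was not called.

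The later steps gave 2 of 6 genes lower with all arrays (3.27% of all genes tested) and 4 of 6 without TNF 6 d replicate 2 (12.4%). Hadhb, the thiolase subunit of the trifunctional protein, changed by -1.09 ± 0.32 (adjusted p = 0.04), from 12.13, 12.1 and 12.24 to 11.29, 11.37 and 10.53, and by -0.48 in the mean of its probe sets (adjusted p = 0.0191). Acaa2, a mitochondrial thiolase, changed by -0.96 ± 0.22 (adjusted p = 0.00736), and the mean of its probe sets changed by -1.16 without passing (adjusted p = 0.153). Hadha, the other trifunctional subunit, changed by -0.48 and Echs1, the short-chain enoyl-CoA hydratase, by -0.99, both called only without that array (adjusted p = 0.0129 and 0.0345). The size of the Echs1 change leaned on 1 array: it read 12.36, 12.44 and 10.46, against 12.82, 12.74 and 12.66 in control. Without TNF 24 h replicate 3 its change was -0.34 (adjusted p = 0.937). That fit keeps TNF 6 d replicate 2, with which Echs1 was not called on all arrays either (adjusted p = 0.374). It therefore cannot show whether the call without TNF 6 d replicate 2 rests on that array. Hadh and Hsd17b10, both hydroxyacyl-CoA dehydrogenases, were not called in either fit.

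Enzymes for unsaturated chains and electron transfer followed the same direction at TNF 24 h. Decr1, the mitochondrial dienoyl-CoA reductase, fell 1.75-fold (-0.81 ± 0.22, adjusted p = 0.0255; adjusted p = 0.055 in the mean of its probe sets). Etfb, the beta subunit of the electron transfer flavoprotein, fell 1.55-fold (-0.63 ± 0.13, adjusted p = 0.00281). With TNF 6 d replicate 2 left out, all 3 members of each role were lower (12.4% of all genes tested). The changes were -0.80 ± 0.09 for Ech1, -0.38 ± 0.11 for Eci1, -0.36 ± 0.13 for Etfa and -0.94 ± 0.09 for Etfdh. Etfa read 13.25, 13.27 and 12.53 under TNF, against 13.4, 13.43 and 13.3 in control. Without TNF 24 h replicate 3, and with TNF 6 d replicate 2 kept, its change was -0.12. Etfdh, which passes the electrons on to ubiquinone, read 12.36, 12.31 and 12.3 in control and 11.48, 11.52 and 11.15 under TNF, so its groups did not overlap in the fit where it was not called (adjusted p = 0.409, SE 0.55). Its value on TNF 6 d replicate 2 was 8.18, against 11.56 and 11.63 on the mates.

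Promoter letters of the members were searched because many of these genes moved together, in RefSeq windows (GRCm38.p6) of 300 bases around a transcript start. The table held 26 windows of 25 members. The nuclear receptor half-site AGGTCA, on either strand, occurred in 5 of 25 genes (Acadm, Acadvl, Cpt1a, Echs1 and Scp2) and in 16.3% of all 32851 windows. No member window held the direct repeat of that half-site with 1 base between (0.0396% of all windows), the extended half-site TCAAGGTCA, which contains it (0.423%), the glucocorticoid receptor palindrome of AGAACA and TGTTCT with 3 bases between (0.00913%) or the NF-kB motif of GGGA and TTTCC with 1 base between (0.411%), on either strand. CCAAT occurred in 10 member genes (37.4% of all windows) and the GC box GGGCGG in 20 (35.7%). The windows of Cpt1a and Scp2 lie inside the span listed for the gene and are not shown. For the dehydrogenases Acadm and Acadvl and for Echs1, the stretch of 60 bases upstream of the start is printed 5′ to 3′ on the gene's strand, with the half-site in capitals; a match is a description of letters only. They lie at chr3:153944834-153944893, chr11:70015483-70015542 and chr7:140116472-140116531, all on the minus strand, with the half-site 249 to 244, 87 to 82 and 83 to 78 bases before the start.
Acadm: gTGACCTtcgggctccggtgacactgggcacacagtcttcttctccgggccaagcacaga
Acadvl: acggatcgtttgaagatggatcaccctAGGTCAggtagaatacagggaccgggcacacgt
Echs1: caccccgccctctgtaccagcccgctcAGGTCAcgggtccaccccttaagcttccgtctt

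Of the peroxisomal genes, 3 of 11 were lower at TNF 24 h (3.27% of all genes tested). Abcd2, which imports very long and polyunsaturated acyl-CoAs, read 9.9, 9.92 and 10.15 in control and 9.12, 9.0 and 7.77 under TNF. All TNF values lay below control, with replicate 3 lowest, and Abcd2 fell 2.56-fold (-1.36 ± 0.29, adjusted p = 0.00443). Acox3, an acyl-CoA oxidase of branched chains, fell 2.01-fold (-1.0 ± 0.23, adjusted p = 0.00765), from 7.13, 7.05 and 7.89 to 6.43, 6.59 and 6.03. In the mean of all its probe sets the change was -0.85 for Abcd2 and -0.59 for Acox3, both still called. Acaa1b, a peroxisomal thiolase, fell 1.98-fold (-0.98 ± 0.29, adjusted p = 0.0377).

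The peroxisomal counts at TNF 24 h were 8 of 11 lower (12.4% of all genes tested) and 1 higher (13.2%) without TNF 6 d replicate 2. Abcd3, Hsd17b4, Scp2, Eci2 and Decr2 joined the lower genes, with changes between -0.32 (Eci2) and -1.22 (Decr2). Scp2 read 13.07, 13.38 and 12.3 under TNF and 13.53, 13.46 and 13.33 in control, with overlap. Its change of -0.52 was -0.21 without TNF 24 h replicate 3 and -0.98 in the mean of its probe sets, both with TNF 6 d replicate 2 kept. Decr2, the peroxisomal dienoyl-CoA reductase, read 8.38, 7.97 and 6.08, and without TNF 24 h replicate 3 its change was -0.53 (adjusted p = 0.385 with all other arrays). The other thiolase gene, Acaa1a, was higher by 0.55 ± 0.18 (adjusted p = 0.0277), at 9.62, 9.63 and 9.35 against 9.05, 9.2 and 8.71. Acaa1a and Acaa1b are near-identical neighbours that also share 2 probe sets of several genes, so the split of signal between them is uncertain. Pex11a, which promotes peroxisome elongation and division, was not called against control at 24 h (0.36).

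After 6 d of TNF, 19 of 30 genes were lower with all arrays and 0 higher, where 10.7% of all genes tested were lower. Without replicate 2, 17 were lower (9.93% of all genes) and 1, Cpt1a, was higher (10.5%), and the median change of the 30 was -0.45 in place of -0.93. The median of all genes tested was -0.05 without the array and -0.23 with it. Leaving out control replicate 1 gave 12 lower genes, with no share of all genes given for that fit, so this count is no result about the members alone.

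Of the carnitine shuttle Crat and Cpt2, and of the dehydrogenases Acadm, Acads and Acadvl, were lower at 6 d in both fits. Crat read 9.43, 9.44 and 9.45 at TNF 6 d, with replicate 2 between its mates, and fell 2.24-fold (-1.16 ± 0.14, adjusted p = 2.44e-05; adjusted p = 3.71e-07 without replicate 2). Cpt2 read 11.04, 9.91 and 11.12, and its change was -1.38 ± 0.23 with replicate 2 and -0.99 ± 0.12 without (adjusted p = 4.93e-06). Cpt1a read 9.76, 9.42 and 9.79; replicate 2 met the highest control value, and without it Cpt1a was higher by 0.44 ± 0.14 (adjusted p = 0.0329). Acadvl changed by -1.43 ± 0.23 and by -1.10 ± 0.16 without replicate 2, and Acads by -0.93 ± 0.17 and -1.05 ± 0.15.

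Replicate 2 did not stand apart alike for all members. Etfdh (8.18), Echs1 (9.39 against 12.07 and 12.04) and Hsd17b10 (9.23 against 11.75 and 11.77) were far below their mates on it. Acads (11.12 against 10.72 and 10.76) and Acaa1a (10.53 against 9.15 and 9.55) were above them. Hadha and Etfa were called with it (adjusted p = 0.0433 and 0.0489) and not without it (adjusted p = 0.0869 and 0.0866). Called in both fits at 6 d were also Acadm, Hadhb, Hadh, Acaa2, Eci1, Decr1, Ech1, Etfb and Etfdh, with changes from -0.38 (Hadh) to -0.95 (Decr1) without replicate 2.

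Among peroxisomal genes at TNF 6 d, Abcd2, Acaa1b, Eci2 and Ehhadh were lower in both fits. Acaa1b read 7.4, 7.36 and 7.13 against 8.8, 8.99 and 8.48 in control, a fall of 2.76-fold (-1.46 ± 0.29, adjusted p = 0.00256). Abcd2 changed by -1.33 ± 0.29 (adjusted p = 0.00567) and by -1.04 ± 0.26 without replicate 2. Eci2, an enoyl-CoA isomerase, changed by -0.35 ± 0.09 without replicate 2 (adjusted p = 0.0078). Ehhadh read 4.81, 4.83 and 4.92 in control and 4.0, 4.27 and 3.81 at TNF 6 d, all below the level of 5.34 used to filter genes, so no fold is given. Acox3, called at 24 h, was not called at 6 d.

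**Figure D2:**
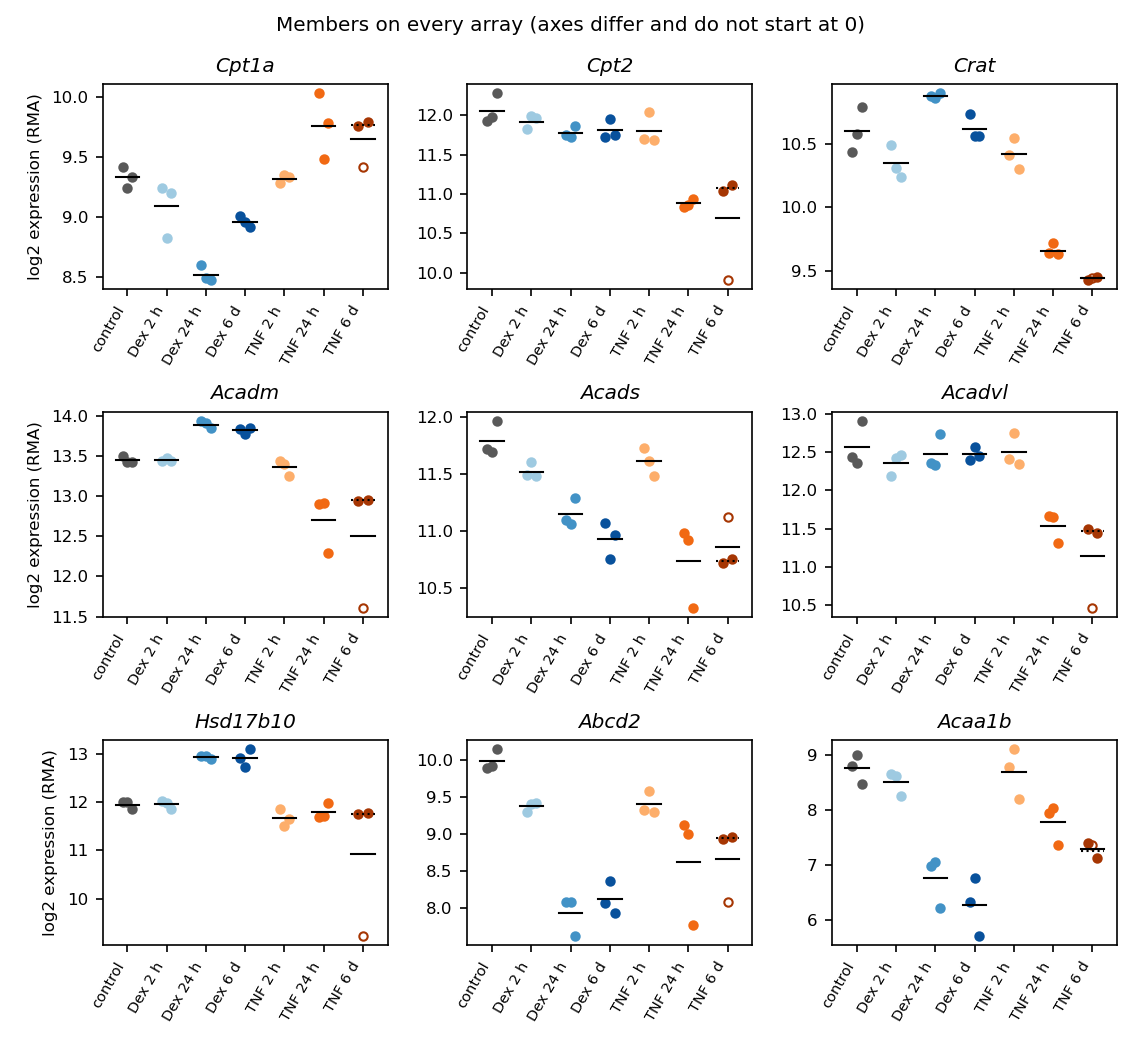
Log2 expression of 9 oxidation genes on each array (1 point per array, 3 per group, coloured by group), with the group mean as a line and, for TNF 6 d, the mean without replicate 2 (open circle) as a dotted line; axes differ between panels and do not start at 0. Crat and Cpt2 are low at both late TNF times, Cpt1a is low at Dex 24 h, and Abcd2 and Acaa1b have their lowest group means under Dex at 24 h and 6 d.

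The median of both organelles' genes lay below control at TNF 24 h and 6 d, that of the mitochondrial genes further with 1 probe set a gene. On each array, the median over genes of the value minus the control mean was -0.75, -0.57 and -0.98 for mitochondrial and -0.37, -0.41 and -0.74 for peroxisomal genes at TNF 24 h. At TNF 6 d these medians were -0.67, -2.08 and -0.69 for mitochondrial and -0.29, -0.96 and -0.30 for peroxisomal genes, the middle value of each being replicate 2, where the median of all genes tested was -0.67. The mitochondrial median lay below the peroxisomal one on all 6 arrays of these groups. With 1 probe set a gene, the median changes at TNF 24 h were -0.80 for mitochondrial and -0.52 for peroxisomal genes. With the mean of probe sets they were -0.63 and -0.60, so the organelles then lay close together. Of the mitochondrial genes, 8 of 19 were lower at 24 h and 15 of 19 at 6 d. Of the peroxisomal genes, 3 of 11 and 4 of 11 were, beside 3.27% and 10.7% of all genes tested. Without TNF 6 d replicate 2 these counts were 15 of 19 and 8 of 11 at 24 h (12.4% of all genes). At 6 d they were then 13 of 19 and 4 of 11 (9.93%), and the medians at 6 d were -0.68 and -0.35. The difference between the organelles is a description with no test, because members were chosen by name and genes are not replicates.

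In the control, Dex and TNF 2 h groups the organelles' medians lay close together. Per array they ran from -0.19 to 0.01 for mitochondrial and from -0.25 to 0.05 for peroxisomal genes, without a fixed order. Crat, Ech1 and Eci2 are known in both organelles. Without these genes the median changes were -0.74 and -0.56 at TNF 24 h and -1.02 and -0.56 at TNF 6 d. These are values with all arrays, TNF 6 d replicate 2 included, and do not compare with the 6 d medians given without it.

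**Figure D3:**
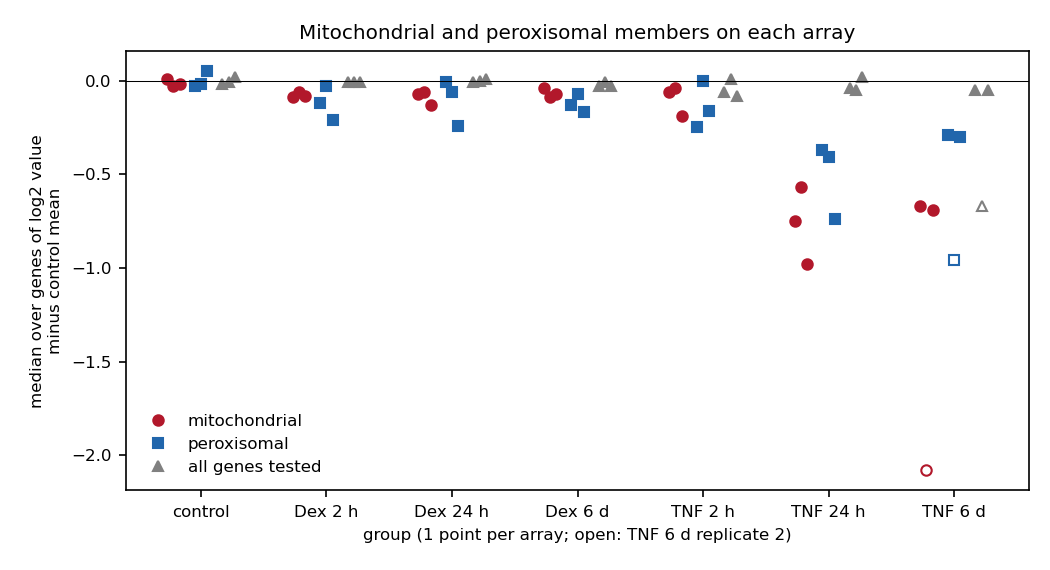
Median over mitochondrial (circles, 19), peroxisomal (squares, 11) and all tested genes (triangles, 12156) of the log2 value minus the gene's control mean, 1 point per array in the 7 groups, open for TNF 6 d replicate 2. Both sets fall below the all-gene medians at TNF 24 h and 6 d, with the mitochondrial points lower, and replicate 2 reaches -2.08.

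Dex lowered a few genes strongly and left the median near 0. At Dex 24 h, 4 of 30 genes were lower (2.11% of all genes tested) and 0 higher, with a median change of -0.06, and at Dex 6 d 3 were lower (5.08%) with a median of -0.10. The largest changes were those of Abcd2 and Acaa1b. Abcd2 read 8.08, 8.08 and 7.63 at Dex 24 h and 8.07, 8.37 and 7.94 at Dex 6 d, against 9.9 to 10.15 in control. It fell 4.16-fold at 24 h (-2.06 ± 0.29, adjusted p = 0.000185) and 3.65-fold at 6 d (-1.87 ± 0.29, adjusted p = 0.000269), and all 4 of its probe sets read lower. Acaa1b read 6.98, 7.06 and 6.23 at Dex 24 h and 6.33, 6.76 and 5.72 at Dex 6 d. It fell 4.01-fold at 24 h (-2.0 ± 0.29, adjusted p = 0.000202) and 5.62-fold at 6 d (-2.49 ± 0.29, adjusted p = 8.84e-06), with no array overlapping control.

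Cpt1a went down under Dex, whereas it read above control under TNF. It read 8.6, 8.49 and 8.48 at Dex 24 h, all below control, and fell 1.75-fold (-0.81 ± 0.16, adjusted p = 0.00585; -0.52 in the mean of its probe sets, adjusted p = 0.048). At Dex 6 d, at 9.01, 8.96 and 8.92, it was called only without TNF 6 d replicate 2 (-0.37 ± 0.13, adjusted p = 0.0377), and its 3 probe sets differed in direction there. Acads changed by -0.64 ± 0.17 at 24 h (adjusted p = 0.0422; adjusted p = 0.0594 with a replicate block, and above 0.05 without any 1 of the control or Dex 24 h arrays) and by -0.86 ± 0.17 at 6 d (adjusted p = 0.00301).

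Without TNF 6 d replicate 2, Dex 24 h gave 2 genes higher (6.39% of all genes tested) and 5 lower (6.79%), and Dex 6 d gave 2 higher (10.4%) and 4 lower (13.5%). The higher genes were Hsd17b10 and Acadm at both times, and Acaa2 joined the lower genes at 24 h (-0.46 ± 0.11, adjusted p = 0.00694). Hsd17b10, a short-chain hydroxyacyl-CoA dehydrogenase that also serves branched-chain amino acid breakdown and mitochondrial tRNA processing, read 11.99, 11.99 and 11.85 in control. It read 12.96, 12.95 and 12.89 at Dex 24 h and 12.92, 12.73 and 13.09 at Dex 6 d, without overlap. Its change of 0.99 at 24 h had an SE of 0.42 and an adjusted p of 0.315 with all arrays, and an SE of 0.10 and an adjusted p of 8.09e-07 without TNF 6 d replicate 2; at 6 d the change was 0.97 (adjusted p = 0.211 and 5.31e-07). Both of its probe sets read higher at the 2 times. Acadm read 13.93, 13.91 and 13.85 at Dex 24 h against 13.42 to 13.5 in control, a change of 0.45 ± 0.11 without that array (adjusted p = 0.00844), and 0.37 at 6 d (adjusted p = 0.0184).

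Set directly against each other, more mitochondrial genes were higher under Dex than under TNF. At 24 h, 10 of 30 genes were higher under Dex than under TNF (5.89% of all genes tested) and 3 lower (7.56%), and at 6 d 15 were higher (15.9%) and 2 lower (7.81%). Without TNF 6 d replicate 2, 20 were higher (16.9%) and 5 lower (16.1%) at 24 h, and 13 higher (14.4%) and 3 lower (15.8%) at 6 d. At 24 h the count was 8, 8 and 7 in all when Dex 24 h replicate 1, 2 or 3 was left out, with no share of all genes given for those fits. Of the mitochondrial genes, 7 of 19 were higher and 1 lower at 24 h, and 14 and 1 at 6 d (12 and 1 without the array). Of the peroxisomal genes, 3 of 11 were higher, Ehhadh among them, and 2 lower at 24 h, and 1 and 1 at 6 d (1 and 2 without it).

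The carnitine shuttle differed within itself. Crat was higher under Dex than TNF, at 10.88, 10.86 and 10.9 against 9.64, 9.72 and 9.63 at 24 h (difference 1.22 ± 0.14, adjusted p = 2.72e-06), and by 1.18 ± 0.14 at 6 d (adjusted p = 5.39e-06). Cpt1a was lower under Dex by 1.24 at 24 h (difference -1.24 ± 0.16, adjusted p = 2.44e-05) and at 6 d (difference -0.69 ± 0.16, adjusted p = 0.00566). Acadm differed by 1.19 ± 0.25 at 24 h (adjusted p = 0.00212) and by 0.87 ± 0.12 at 6 d without replicate 2 (adjusted p = 1.48e-05).

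Peroxisomal genes were split between the agents. Acox3 was higher under Dex at 24 h (difference 1.29 ± 0.23, adjusted p = 0.000641), at 7.73, 7.52 and 7.67 against 6.43, 6.59 and 6.03. Acaa1b was lower under Dex than under TNF at 24 h (difference -1.02 ± 0.29, adjusted p = 0.021) and at 6 d (difference -1.03 ± 0.29, adjusted p = 0.0156). Pex11a was lower under Dex at 24 h (difference -0.59 ± 0.19, adjusted p = 0.0436), a call lost in the mean of its probe sets (-0.45, adjusted p = 0.268) and without TNF 24 h replicate 3 (adjusted p = 0.11). Abcd2, at 8.08, 8.08 and 7.63 under Dex and 9.12, 9.0 and 7.77 under TNF, was lower under Dex at 24 h only without TNF 6 d replicate 2 (difference -0.70 ± 0.24, adjusted p = 0.0276), with overlapping groups. Decr2 was higher by 1.31 ± 0.40 (adjusted p = 0.0374), and without TNF 24 h replicate 3 the difference was 0.61 (adjusted p = 0.204). Ehhadh was also called at 24 h, with both group means below 5.34. Since 1 Dex 24 h array helped bring it into the test, this call is counted but supports nothing. At 2 h the 1 gene called was Ehhadh, lower under Dex (3.61% of all genes lower), at 4.72, 4.56 and 4.29 against the TNF values that helped bring it into the test. Acaa1a was also lower at 2 h without TNF 6 d replicate 2 (7.63%).

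**Figure D4:**
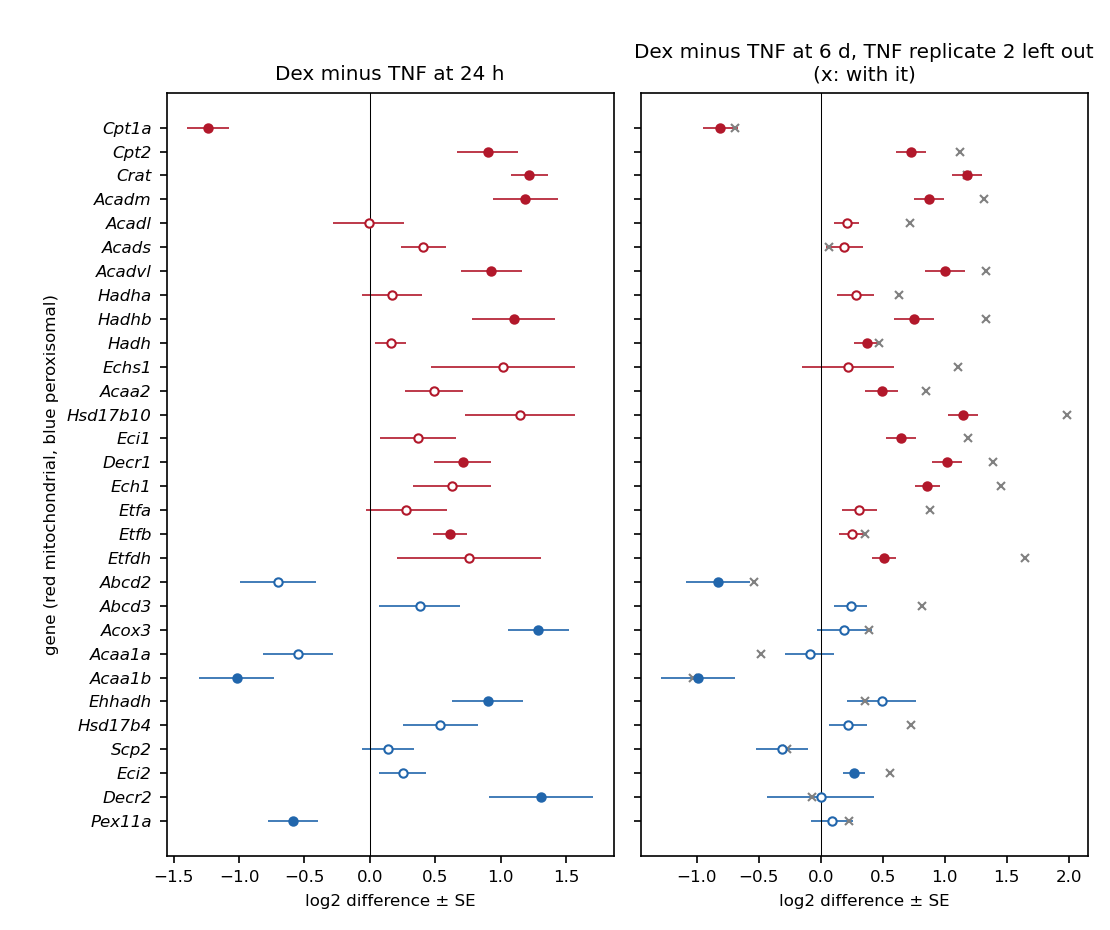
Difference of log2 expression, Dex minus TNF, ± SE from limma for the 30 oxidation genes (mitochondrial red, peroxisomal blue; filled where the adjusted p is below 0.05), at 24 h with all arrays (left) and at 6 d without TNF replicate 2 (right, crosses with it). Most mitochondrial points lie right of 0, while Cpt1a, Abcd2 and Acaa1b lie left of 0 at both times.

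Between neighbouring times, more genes were called from 2 h to 24 h of TNF than from 24 h to 6 d. From TNF 2 h to 24 h, 6 of 30 genes were called lower, Ehhadh among them (2.69% of all genes tested), and Pex11a rose (3% of all genes). When TNF 6 d replicate 2 was left out, 18 fell (10.1%) and 2 rose (11.9%), and without TNF 2 h replicate 2, 4 were called in all (no share given). From TNF 24 h to 6 d, Pex11a alone was called, lower (4.78%), and the same gene without replicate 2 (5.09%). Without TNF 6 d replicate 1 or 3, 9 or 8 were called (no share given). The median change over the 30 in that step was -0.24 with all arrays and 0.01 without replicate 2. Under Dex, Crat rose (1.57%) and Abcd2 and Acaa1b fell (2.05%) from 2 h to 24 h. Without TNF 6 d replicate 2, 3 rose (6.24%) and 4 fell (7.26%). From Dex 24 h to 6 d, 0 of 30 were called with all arrays (0.683%) or without that array (4.5%).

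Under TNF, Pex11a was called in opposite directions over the successive steps. It read 11.4, 11.57 and 10.82 in control, 10.76, 10.93 and 10.64 at TNF 2 h, 11.53, 11.7 and 11.66 at 24 h and 11.15, 10.64 and 10.99 at 6 d. The 24 h values lay above those of both other TNF times, and the control values spanned most of the range. The change from 2 h to 24 h was 0.85 ± 0.19 (adjusted p = 0.00828) and that from 24 h to 6 d was -0.70 ± 0.19 (adjusted p = 0.0337).

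Other genes of the pathway, which are not members, were counted the same way. Of all genes tested, 3.27% were lower at TNF 24 h with all arrays. Without TNF 6 d replicate 2, 12.4% were lower and 13.2% higher at that time. At TNF 6 d, 10.7% were lower with all arrays and 9.93% without replicate 2. At TNF 24 h, 1 of 11 other mitochondrial oxidation genes was lower (Acad9, -0.79 ± 0.16, adjusted p = 0.0026) and 3 of 19 other peroxisomal lipid genes: Pxmp2, a peroxisomal membrane channel (-1.72 ± 0.23, adjusted p = 3.72e-05), Gnpat, of ether lipid synthesis (-1.10 ± 0.18), and Cat, catalase (-0.75 ± 0.19). Their median changes were -0.28 and -0.19. Of 12 peroxisome biogenesis genes 0 were called (median -0.39), and of 14 general mitochondrial proteins 1 was lower, the citrate synthase gene Cs (-0.63 ± 0.13, adjusted p = 0.00364), with a median of -0.29. Without TNF 6 d replicate 2, the counts lower at TNF 24 h were 4 of 11, 7 of 19, 6 of 12 and 4 of 14 in the same order, with 3 of the 11 higher. At TNF 6 d without replicate 2, 7 of the 14 general mitochondrial proteins were lower (median -0.31), beside 13 of 19 mitochondrial oxidation genes (median -0.68). With all arrays at TNF 6 d, 5 of 11 other mitochondrial oxidation genes were lower and 1 was higher, and 7 of 19 other peroxisomal lipid genes, 5 of 12 biogenesis genes and 7 of 14 general mitochondrial proteins were lower. Under Dex, Pxmp2 rose by 0.93 ± 0.23 at 24 h (adjusted p = 0.0233), the reverse of its change under TNF, and the difference between the agents was 2.65 ± 0.23 (adjusted p = 1.01e-07).

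Some regulators of oxidation genes were lower at TNF 2 h, where no member was called with all arrays. Whether they bear on the members was not tested. At that time, 4 of 8 were lower (0.872% of all genes tested): Ppargc1b (-1.98 ± 0.26, adjusted p = 4.73e-05), a coactivator of mitochondrial genes, Nrip1 (-1.91 ± 0.28), a corepressor of oxidative genes, Pparg (-1.40 ± 0.35) and Esrra (-0.82 ± 0.17). At TNF 24 h, Nrip1 (-1.10 ± 0.28) and Esrra (-0.60 ± 0.17) were lower and Ppard was higher (0.93 ± 0.27, adjusted p = 0.0372). At Dex 2 h, 2 of 8 were lower as well (0.814% of all genes), Ppargc1b (-1.23 ± 0.26, adjusted p = 0.0101) and Nrip1 (-1.09 ± 0.28, adjusted p = 0.0443). Without TNF 6 d replicate 2, 6 were lower at TNF 2 h (4.08% of all genes lower). At Dex 2 h 3 were then lower (7.12% of all genes called in either direction), the third being Ppargc1a (-1.49 ± 0.18). Rxra, the partner of the PPARs, was higher under Dex at 2 h (0.58 ± 0.13), 24 h (0.77 ± 0.13) and 6 d (0.61 ± 0.13).

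Adipocyte markers fell beside the oxidation genes under TNF. Of all genes tested, 3.27% were lower at TNF 24 h and 5.08% at Dex 6 d with all arrays. Without TNF 6 d replicate 2 these shares were 12.4% and 13.5%, and 13.2% were higher at TNF 24 h. At TNF 24 h, 4 of 8 tested were lower (Retn -2.64, Cidec -1.97, Lipe -1.27 and Lpl -0.25), with a median of -0.68 over the 8. The log2 of the summed linear level of the 8 was 16.35 to 16.67, against 17 on all control arrays and 16.87 to 17.04 under Dex. At TNF 6 d it was 16.23 to 16.71 with replicate 2 included. On that array Adipoq read 14.16 against 14.77 and 14.71 on its mates, and Fabp4 14.49 against 14.96 and 14.93. Adipoq (-0.25) and Fabp4 (-0.07) were not called at TNF 24 h with all arrays. Without TNF 6 d replicate 2 the adipocyte count there was 7 of 8, with Adipoq (adjusted p = 0.00177), Pparg and Cd36 added. The control means of Adipoq, Fabp4 and Lpl were 14.88, 14.93 and 14.68, near 15.06, the highest value on any array. A small change of such bright genes says little, and they weigh most in the sum. Of 9 preadipocyte and fibroblast markers, 2 were higher at TNF 24 h and 5 lower at Dex 6 d (2 higher and 1 lower, and 6 lower, without the array), and the sums over all 10 on the list were 15.94 to 16.08 and 15.21 to 15.39, against 15.94 to 16.03 in control. Of 10 macrophage markers, 5 were tested and 2 were higher at TNF 24 h (Cd14 and Cd68; sum over the 10 of 9.38 to 9.6 against 8.53 to 8.6), and without that array 3 were higher, while Adgre1, Ptprc, Itgam, Mrc1 and Tyrobp were too dim to test. The cultures are of the 3T3-L1 line, so the rise of Cd14 and Cd68 is no measure of macrophages in them. The part of these marker genes in the oxidation gene changes was not tested, and fewer adipocytes and less RNA per adipocyte cannot be told apart in such bulk samples.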

How the data were processed

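Total RNA of 21 cultures was hybridised as biotin-labelled cRNA to Affymetrix mouse arrays, per the labels' protocols. The deposited values are log2 expression of 45101 probe sets made by the authors with RMA, per the submitters' processing notes; no version is given in the sources used here. RMA shares its background model and quantile step over arrays, so a deviating array can touch others. Probe sets were named from the platform annotation (34958 with 1 gene, 932 with several, 9211 with none), and 34754 symbols were updated by gene identifier in RefSeq (GRCm38.p6). Each of 18194 genes was represented by its brightest single-gene probe set, and 12156 with at least 3 arrays above 5.34, the median of all values, were tested. limma 3.58.1 in R 4.3.3 was fitted with a trended prior to all 7 groups, with Benjamini-Hochberg adjustment over the 12156 genes in each of 13 comparisons and a threshold of 0.05, and the scripts were tested on simulated data. Genes were compared with themselves only, since probe sets differ in brightness for reasons other than RNA level. Labels call the replicates biological, and no pair of arrays held more than 0.00856 of its values in common.

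Replicate numbers are shared between groups. Deviations of same-numbered arrays correlated above 0.1 in every pair only for Dex 24 h with control (0.233 to 0.447) and with TNF 24 h (0.207 to 0.27), and only there was a replicate block treated as a pairing. The labels state no pairing, and for control with TNF 24 h the correlations were 0.0555 to 0.0877. Whether the numbers pair the samples is therefore uncertain. All 31 oxidation genes are covered; of each other list, up to 4 called genes a comparison with the largest change were eligible to be named. The members and lists were chosen with earlier results of these data known. Alternatives were other probe set rules, filters, centring, no trend, 2-group fits, the block and leaving out each array. Leaving out 4 arrays with a high 3' minus 5' difference was added after seeing the data.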

Additional observations from a re-analysis of the deposited data

Results flagged for a closer look

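Differences between neighbouring treatment times passed the test (limma, adjusted p below 0.05, all arrays) for 11 results. From 2 h to 24 h of Dex, Crat changed by 0.53 (adjusted p = 0.0328), Acaa1b by -1.75 (adjusted p = 0.000992) and Abcd2 by -1.45 (adjusted p = 0.00627). From 2 h to 24 h of TNF, the changes were -0.86 for Acads (adjusted p = 0.0039), -0.96 for Acadvl (adjusted p = 0.0137), -0.93 for Cpt2 (adjusted p = 0.0179), -0.76 for Crat (adjusted p = 0.00144) and -0.51 for Etfb (adjusted p = 0.0212). Over the same step Pex11a changed by 0.85 (adjusted p = 0.00828). The difference of -1.48 for Ehhadh runs from the TNF 2 h values that helped bring it into the test to a mean of 4.25, below the filter level of 5.34, so it is a description only. From 24 h to 6 d of TNF, Pex11a changed by -0.70 (adjusted p = 0.0337). Crat is the gene on this list with opposite signs under the agents.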

How the results depend on the processing

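The main limits are the 3 arrays a group and TNF 6 d replicate 2; no called difference of a member changed sign under any alternative, while differences that were not called did, such as Scp2 in Dex against TNF at 24 h (0.14, and -0.17 without TNF 24 h replicate 3). Each array was left out in turn. The number of genes called of 30 then ran from 0 to 0 at Dex 2 h, 3 to 7 at Dex 24 h, 3 to 6 at Dex 6 d, 0 to 2 at TNF 2 h, 7 to 25 at TNF 24 h and 12 to 26 at TNF 6 d. Between agents it ran from 0 to 2 at 2 h, 7 to 25 at 24 h and 12 to 23 at 6 d. Between times it ran from 2 to 7 (Dex 2 h to 24 h), 0 to 0 (Dex 24 h to 6 d), 4 to 20 (TNF 2 h to 24 h) and 0 to 9 (TNF 24 h to 6 d). The TNF 24 h count was 7 without TNF 24 h replicate 3 and 25 without TNF 6 d replicate 2; TNF 2 h gave 1 without control replicate 3 or TNF 2 h replicate 3. Dex against TNF at 2 h gave 0 without TNF 2 h replicate 2, and TNF 24 h to 6 d gave 0 without any 1 of the TNF 24 h arrays. Mitochondrial and peroxisomal medians ran from -0.09 to -0.05 and -0.21 to -0.04 (Dex 2 h), -0.08 to -0.04 and -0.11 to -0.04 (Dex 24 h), -0.09 to -0.05 and -0.28 to -0.11 (Dex 6 d), -0.13 to -0.08 and -0.24 to -0.02 (TNF 2 h), -0.86 to -0.66 and -0.60 to -0.43 (TNF 24 h), and -1.27 to -0.68 and -0.75 to -0.35 (TNF 6 d).

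Fitting only the 2 groups compared gave 1 gene called at Dex 2 h, 8 at Dex 24 h, 6 at Dex 6 d, 1 at TNF 2 h and 0 at TNF 6 d, where 29 genes were called in all; the spread is then that of a group holding replicate 2. It gave 20 for Dex against TNF at 24 h, 0 at 6 d, 11 for Dex 2 h to 24 h, 1 for Dex 24 h to 6 d, 13 for TNF 2 h to 24 h and 0 for TNF 24 h to 6 d. Leaving out the 4 arrays with a high 3' minus 5' difference gave 2, 12 and 10 for Dex at 2 h, 24 h and 6 d, 5 and 23 for TNF at 2 h and 24 h, 2 and 24 for Dex against TNF at 2 h and 24 h, 11 and 5 for the Dex steps and 17 and 5 for the TNF steps. The share of all genes called moves with the setting too. At Dex 24 h the share lower was 2.11% with all arrays and 6.79% without TNF 6 d replicate 2. The counts under these alternatives, and those with 1 array left out, are therefore no result about the members alone. The stricter filter gave 0 for Dex against TNF at 2 h, since Ehhadh was no longer tested. With the replicate block, Dex 24 h gave 3 genes in place of 4 (Acads was lost), and Dex against TNF at 24 h stayed at 13. In comparisons where the block was not treated as a pairing, TNF 2 h gave 1 and TNF 24 h gave 10. The block changed no other call where it was treated as a pairing.

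Some medians moved by more than their spread, for causes not tested. They include the mitochondrial median at TNF 24 h, which was -0.63 with the mean of probe sets against -0.80 with 1 probe set a gene. The others were small. The mitochondrial median at Dex 2 h was -0.02 with the mean of probe sets and -0.02 with median centring, and at Dex 24 h -0.05 with centring. At Dex 6 d it was -0.08 without the 4 arrays and -0.10 without Crat, Ech1 and Eci2. The peroxisomal median at Dex 6 d was -0.23 without those 3 genes, and at TNF 2 h -0.20 with the mean of probe sets and -0.24 without the 4 arrays. Of the single gene results, 332 stayed on their side of the threshold without TNF 6 d replicate 2, 54 newly passed and 4 no longer passed.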
